A study of Mus musculus with 10 samples.

Results

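The transcripts described here encode 8 protein kinases of the heart: the SH3-binding kinases Sbk1, Sbk2 and Sbk3, the alpha-kinases Alpk2 and Alpk3, the giant muscle kinases Speg and Ttn, and the troponin I-interacting kinase Tnni3k. They were 8 of the 24888 genes in the deposited table, found by their gene symbols, and all 8 were among the 14212 genes that reached at least 10 scaled reads in at least 5 libraries. The genes were chosen on results of the same comparison, with their fold changes between the groups already known, so their differences between the groups are given as a description, with no p-value. Where the text counts how many of them passed the threshold of the fit over all genes, the count stands beside that of all genes and nothing is read from it. Heart tissue of male mice was profiled by sequencing poly(A) RNA. One group of 5 libraries, SPOP_CKI, came from mice in which SPOP was overexpressed in the heart through Cre recombinase driven by the alpha-myosin heavy chain promoter (αMHC, Myh6), which is active in cardiomyocytes. The SPOP protein recruits substrates to the cullin-3 ubiquitin ligase. The other group of 5 libraries, Cre_control, is titled wild type but carries the Myh6Cre genotype, so the Cre transgene was shared by both groups. All mice were 8 to 10 weeks old and under sham conditions. The labels give neither a founder line nor a litter.

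Protein kinases of muscle work both as enzymes and as parts of the sarcomere. Titin, the product of Ttn, spans from the Z-disc to the M-band, acts as a molecular spring and carries a kinase domain near its M-band end. Speg is a related giant protein with a pair of kinase domains that acts at the junctional sarcoplasmic reticulum, where calcium is released. Alpha-kinases form a separate fold family of kinases, and loss of Alpk3 causes cardiomyopathy. Tnni3k is a kinase largely restricted to the heart that binds cardiac troponin I, and its variants are known from conduction disease and dilated cardiomyopathy. The SH3-binding kinases are small and little studied, and Sbk2 has been described chiefly in atrial muscle.

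Sbk2 and Sbk3 lie next to each other on chromosome 7, on the minus strand, with 853 bases between them. The sequences around their transcription starts are shown first because both transcripts were low in the SPOP_CKI hearts, and those of Tnni3k, which was lower on average, and Ttn, whose groups overlapped widely, are set beside them. Each window runs from 250 bases before the RefSeq start to 50 bases from it on (GRCm38.p6, 5′ to 3′ on the gene's strand), so that base 251 is the first of the transcript. Capitals mark 6 motifs, searched on both strands. They are the E-box, which reads CANNTG, and the MCAT element of muscle genes, which reads CATTCC. The half-site of nuclear receptors reads AGGTCA, and the core promoter box searched reads TATAAA. The MEF2 site and the CArG box of serum response factor complete the set.
Sbk2, chr7:4964357-4964656, minus strand: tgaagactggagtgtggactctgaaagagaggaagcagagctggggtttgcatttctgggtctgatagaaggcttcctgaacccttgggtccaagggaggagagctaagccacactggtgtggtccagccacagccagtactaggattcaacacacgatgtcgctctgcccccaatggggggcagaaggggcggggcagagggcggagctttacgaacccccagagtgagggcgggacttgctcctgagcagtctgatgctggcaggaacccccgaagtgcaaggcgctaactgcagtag
Sbk3, chr7:4970912-4971211, minus strand: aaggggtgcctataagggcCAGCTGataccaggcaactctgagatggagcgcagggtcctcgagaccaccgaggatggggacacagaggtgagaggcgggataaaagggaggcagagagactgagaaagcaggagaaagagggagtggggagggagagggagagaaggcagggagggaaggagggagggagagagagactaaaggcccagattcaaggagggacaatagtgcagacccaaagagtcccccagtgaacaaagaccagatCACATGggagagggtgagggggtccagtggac
Tnni3k, chr3:155055358-155055657, minus strand: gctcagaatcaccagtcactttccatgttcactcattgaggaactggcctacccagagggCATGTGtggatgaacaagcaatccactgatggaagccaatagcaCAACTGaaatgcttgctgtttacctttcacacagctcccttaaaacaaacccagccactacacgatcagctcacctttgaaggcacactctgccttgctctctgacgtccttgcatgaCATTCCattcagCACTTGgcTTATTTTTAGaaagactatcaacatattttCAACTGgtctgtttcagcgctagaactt
Ttn, chr2:76982498-76982797, minus strand: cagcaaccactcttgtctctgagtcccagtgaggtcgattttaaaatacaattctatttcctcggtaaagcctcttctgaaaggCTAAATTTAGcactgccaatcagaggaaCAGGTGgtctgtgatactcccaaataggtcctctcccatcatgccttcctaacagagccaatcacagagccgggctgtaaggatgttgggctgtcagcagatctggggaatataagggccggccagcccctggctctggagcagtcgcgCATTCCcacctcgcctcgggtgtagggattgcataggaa

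RefSeq windows were found for 6 of the 8 genes, with 4 alternative starts for Speg. The Sbk2 window held none of the 6 motifs, and the Sbk3 window held 2 E-boxes, at bases 20 and 269. The Tnni3k window held 4 E-boxes, an MCAT element at base 223 and a MEF2 site at base 243. The Ttn window held an E-box at base 113, an MCAT element at base 262 and a MEF2 site at base 85. A MEF2 site was found for 4 of the 6 genes (Alpk3, Speg, Ttn and Tnni3k), and that of Alpk3 overlapped its match to TATAAA. Over all 32851 RefSeq windows of the same length, 72.3% held an E-box, 14.7% an MCAT element, 16.3% a half-site, 13.6% the core promoter box, 3.19% a MEF2 site and 1.63% a CArG box. The windows of Sbk2 and Sbk3 had a GC content of 58.7% and 58.0%, against a median of 52.7% over all windows, and those of Tnni3k and Ttn 45.3% and 51.7%. The RefSeq start of Sbk3 lies 207 bases inside the outer end that the deposited table gives for the gene, while the starts of Sbk2, Tnni3k and Ttn coincide with theirs. These letter matches describe the sequence and are no evidence of binding.

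The libraries held 15316293 to 17114869 reads counted to genes. Values are given as scaled reads, that is, reads per gene after division by the size factor of each library. Spop stood at 31897 ± 6254 scaled reads (SD, n = 5) in SPOP_CKI and 3425 ± 317 in controls, without overlap. The summed level of 10 cardiomyocyte markers was 339750 to 625322 in SPOP_CKI and 575136 to 748162 in controls, so cardiomyocyte RNA was present in every library. In bulk RNA, fewer cells of a type and less RNA per cell cannot be told apart. SPOP_CKI 3 stood apart by base composition. In the 10% of genes richest in GC its median log2 difference from the control mean was −2.08, against −0.34 to −0.55 in the other SPOP_CKI libraries and −0.16 to 0.19 in controls. SPOP_CKI 5 had the highest median in the longest 10% of genes, at 0.49, against 0.08 to 0.19 in the other SPOP_CKI libraries. In the shortest 10% of genes the medians were −0.79 in SPOP_CKI 3 and −0.56 in SPOP_CKI 5, and −0.33 to −0.14 in the other 3. Results that rest on these libraries are given with and without them or with the trend removed. The labels do not say that the libraries came from separate litters or preparations, so the p-values measure only library-to-library spread, which may be technical.

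**Figure D1:**
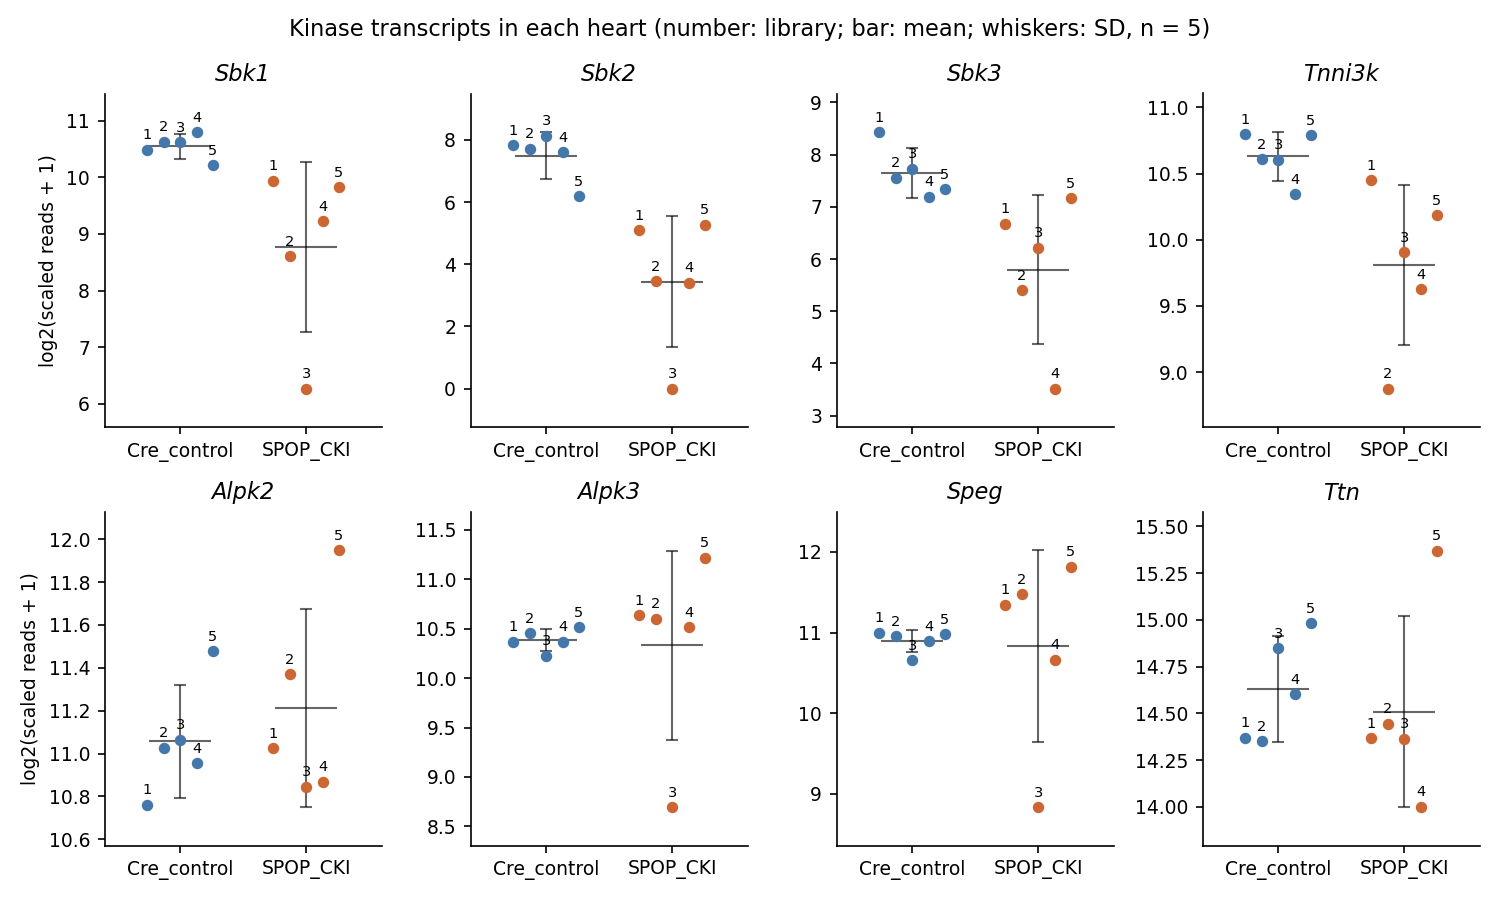
Level of each of the 8 kinase transcripts in each heart, as log2(scaled reads + 1), by group. Points carry the library number, the bar is the mean and the whiskers are the SD (n = 5). Sbk1, Sbk2 and Sbk3 do not overlap between the groups, Tnni3k overlaps through 1 library, and Alpk3 and Speg are low in SPOP_CKI 3 alone.

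All 3 SH3-binding kinases were lower in every SPOP_CKI heart than in any control, as were 12.3% of all tested genes. Sbk2 (ENSMUSG00000030433, chromosome 7, 4940512 to 4964406, mm10) had 228, 210, 280, 193 and 71.8 scaled reads in controls 1 to 5. In SPOP_CKI 1 to 5 it had 33.4, 9.91, 0, 9.58 and 37.8 scaled reads. The highest SPOP_CKI heart thus lay below the lowest control, which was control 5. The means were 197 ± 77.0 in controls and 18.1 ± 16.5 in SPOP_CKI (SD, n = 5 each), a ratio of 10.8. The fitted log2 fold change, on log2(scaled reads + 1), was −4.05 (SE 0.88). No read was counted in SPOP_CKI 3, where 3 reads would have been 2.63 scaled reads, so the fitted value depends on the pseudocount. Without that library it was −3.19.

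Sbk3 (ENSMUSG00000085272, chromosome 7, 4965260 to 4971168) had 345, 188, 212, 145 and 161 scaled reads in controls 1 to 5 and 101, 41.3, 73.6, 10.5 and 143 in SPOP_CKI 1 to 5. The groups did not overlap, but SPOP_CKI 5 came close to control 4. The log2 fold change was −1.85 (SE 0.59), and −1.96 without SPOP_CKI 3. The lowest Sbk3 level was in SPOP_CKI 4 and the lowest Sbk2 level in SPOP_CKI 3, so the neighbouring genes did not follow the same order across the hearts. Sbk3 stood at 1.23 ± 0.645 times the reads of Sbk2 in controls and at 3.02 ± 1.37 times in the 4 SPOP_CKI libraries with Sbk2 reads. The ranges of this ratio overlapped, at 0.751 to 2.24 and 1.09 to 4.17. The longest exact stretch shared by transcripts of Sbk2 and Sbk3 was 14 bases, shorter than a read, and those of Sbk1 with Sbk2 and Sbk3 were 12 and 13 bases.

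Sbk1 (ENSMUSG00000042978, chromosome 7, 126272619 to 126295016), the family member first known from brain, was the most abundant of the 3. It had 1432, 1577, 1572, 1779 and 1185 scaled reads in controls 1 to 5 and 979, 389, 76.2, 598 and 906 in SPOP_CKI 1 to 5. In scaled reads all SPOP_CKI hearts were below all controls, though not after the GC centring described below. The spread within SPOP_CKI was 12.9-fold between the lowest and the highest heart, far wider than in controls. The log2 fold change was −1.77 (SE 0.58). It was −1.15 without SPOP_CKI 3, the lowest library. The 3 transcripts together held 1916 ± 284 scaled reads in controls and 682 ± 417 in SPOP_CKI, of which Sbk1 made up 79.0% ± 5.30 and 81.5% ± 17.8.

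Tnni3k (ENSMUSG00000040086, chromosome 3, 154786291 to 155055407) was lower in SPOP_CKI on average, with a small overlap. Controls 1 to 5 held 1778, 1563, 1557, 1300 and 1772 scaled reads, and SPOP_CKI 1 to 5 held 1399, 468, 958, 789 and 1163. Only SPOP_CKI 1 lay above the lowest control, and SPOP_CKI 2 was the lowest heart. The ratio of the control to the SPOP_CKI mean was 1.67 and the log2 fold change was −0.82 (SE 0.26), with −0.85 when SPOP_CKI 3 was left out.

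The alpha-kinases did not share this pattern. Alpk3 (ENSMUSG00000038763, chromosome 7, 81057600 to 81105612) had 1320, 1401, 1197, 1319 and 1462 scaled reads in controls 1 to 5 and 1591, 1550, 413, 1461 and 2383 in SPOP_CKI 1 to 5. SPOP_CKI 1, 2 and 5 lay above the highest control, SPOP_CKI 4 was within the control range, and SPOP_CKI 3 was far below it. The log2 fold change was −0.05 (SE 0.37), and 0.36 without SPOP_CKI 3. The ratio of the SPOP_CKI to the control mean was 1.10, opposite in sign to the fitted value over all libraries.

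Alpk2 (ENSMUSG00000032845, chromosome 18, 65265529 to 65393888), an alpha-kinase of the heart and of other tissues, had 1735, 2087, 2140, 1985 and 2853 scaled reads in controls 1 to 5. It had 2084, 2647, 1839, 1868 and 3949 in SPOP_CKI 1 to 5. The groups overlapped over most of their range, and in both of them heart 5 was the highest. The log2 fold change was 0.15 (SE 0.23). Genes on the opposite strand, AC157910.5 and AC157910.6, share 14.5% and 3.59% of its exonic bases. The sources used here do not say whether the counting used strand, so reads from these partners cannot be told apart from those of Alpk2.

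Speg (ENSMUSG00000026207, chromosome 1, 75375297 to 75432320) followed Alpk3. Its controls 1 to 5 held 2043, 1985, 1616, 1894 and 2016 scaled reads, within 1.26-fold of each other. SPOP_CKI 1 to 5 held 2601, 2847, 455, 1622 and 3605, a 7.93-fold range. As with Alpk3, SPOP_CKI 1, 2 and 5 were above every control and SPOP_CKI 3 was far below. The log2 fold change was −0.07 (SE 0.46), and 0.43 without SPOP_CKI 3, while the ratio of the SPOP_CKI to the control mean was 1.17. Speg stood at 1.43 ± 0.0759 times Alpk3 in controls and 1.44 ± 0.326 times in SPOP_CKI. Over the 10 libraries, Alpk3 and Speg were the closest pair of the 8 genes, with a root mean square difference of 0.22 between their log2 deviations from the control mean. The next closest pair was Alpk2 and Ttn at 0.25, and the largest difference was between Sbk2 and Alpk2 at 3.26.

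Ttn (ENSMUSG00000051747, chromosome 2, 76703980 to 76982547) held the most reads of the 8 genes. It had 21175, 20885, 29490, 24907 and 32351 scaled reads in controls 1 to 5 and 21133, 22317, 21114, 16395 and 42388 in SPOP_CKI 1 to 5. The groups overlapped, with the highest and the lowest heart both in SPOP_CKI. The log2 fold change was −0.12 (SE 0.26). Under quantile normalization its sign turned, to 0.18. As a share of all counted reads, Ttn made up 0.147% ± 0.0275 in controls and 0.158% ± 0.0412 in SPOP_CKI. A gene on the opposite strand, Gm13938, shares 0.388% of its exonic bases. The annotation (GENCODE M21) lists 25 transcripts of Ttn with up to 347 exons, and the table holds a single value per gene, so isoforms of the spring region were not measured.

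**Figure D2:**
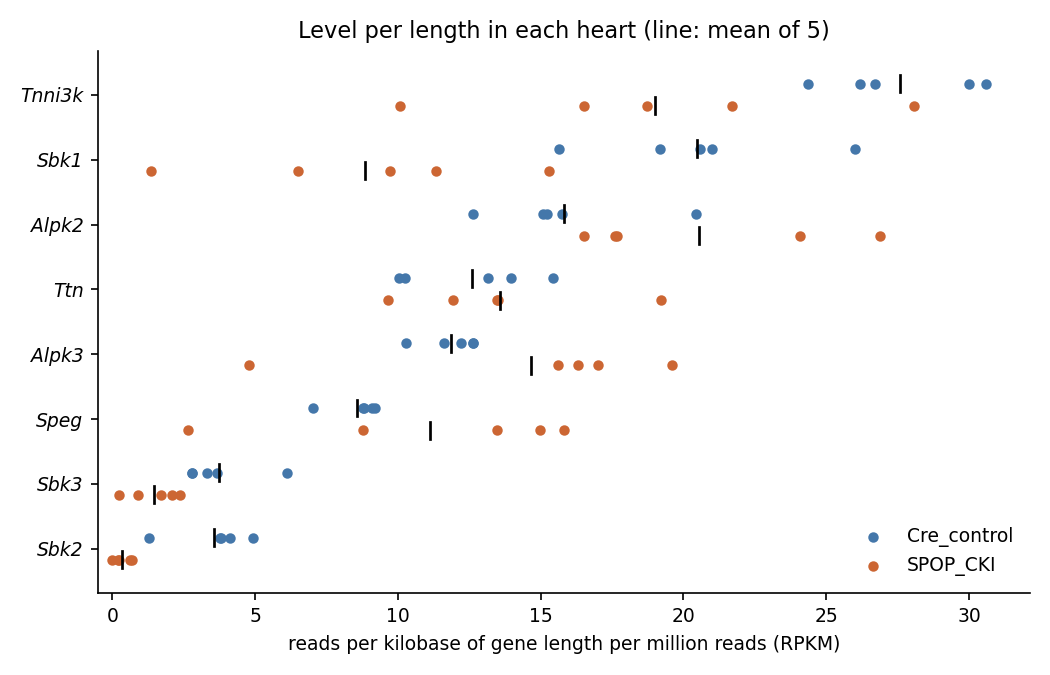
Level of each kinase transcript per gene length, in RPKM (reads scaled to gene length and to library depth), in each heart. Points are libraries, coloured by group, and lines are means of 5. Tnni3k leads in controls at 27.6, and Alpk2 and Tnni3k lead in SPOP_CKI at 20.6 and 19.0, while Sbk2 and Sbk3 are lowest in both groups.

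Per length, the order of levels among the 8 genes differed from the order by reads. RPKM divides the reads of a gene by its length in kilobases and by the depth of the library. In controls the mean RPKM was 27.6 ± 2.64 for Tnni3k, 20.5 ± 3.74 for Sbk1, 15.8 ± 2.85 for Alpk2 and 12.6 ± 2.35 for Ttn. Alpk3 followed at 11.9 ± 0.989, Speg at 8.57 ± 0.886, Sbk3 at 3.74 ± 1.38 and Sbk2 at 3.57 ± 1.37. Within this order, Alpk3 and Speg did not overlap over the controls, nor did Speg and Sbk3. The ranges of the other neighbouring pairs overlapped, and Sbk3 was above Sbk2 in only 2 of 5 control hearts. In SPOP_CKI the order ran Alpk2 at 20.6 ± 4.62, Tnni3k at 19.0 ± 6.62, Alpk3 at 14.7 ± 5.72, Ttn at 13.6 ± 3.53 and Speg at 11.1 ± 5.47. Sbk1 stood at 8.85 ± 5.25 RPKM, Sbk3 at 1.46 ± 0.881 and Sbk2 at 0.354 ± 0.301. There all neighbouring pairs overlapped, although Sbk3 was above Sbk2 in 5 of 5 hearts. Of the tested genes, 50.0% had a lower mean RPKM than Sbk2 in controls and 6.90% in SPOP_CKI. Sbk2 met the filter on low values through the controls, as only SPOP_CKI 1 and 5 reached 10 scaled reads. Genes low in both groups were left out by that filter, so its share in SPOP_CKI depends on the filter. For Sbk1 the shares in controls and SPOP_CKI were 87.2% and 70.3%, and for Ttn 80.1% and 79.6%.

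In the limma fit over all 14212 genes, 12.3% of genes were lower and 10.0% higher in SPOP_CKI at an adjusted p under 0.05. Past that threshold were 4 of the 8 kinases, all lower (Sbk1, Sbk2, Sbk3 and Tnni3k). DESeq2 on the recovered reads called the same 4 genes lower, against 14.3% of all genes, and edgeR called Sbk2 alone, against 10.5%. Without SPOP_CKI 3 limma called the same 4, against 17.3%. Without any 1 of the 5 control libraries it called Sbk2 alone, against 7.48% to 9.54% of all genes. Every SPOP_CKI library was below every control for 3 of the 8 (Sbk1, Sbk2 and Sbk3), as for 12.3% of all tested genes. Because the genes were chosen with these values known, nothing is read from the counts. The median log2 fold change over all tested genes was −0.11.

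The log2 fold changes depended on base composition for the GC-rich transcripts. The longest transcripts of Speg, Sbk1 and Alpk3 are 62.6%, 60.1% and 57.1% GC, above or near the lower bound of the richest 10% of genes at 57.7%. Those of Sbk2, Alpk2, Sbk3, Tnni3k and Ttn are 55.3%, 51.8%, 50.9%, 48.7% and 47.4% GC. In SPOP_CKI 3, the log2 difference of Speg from the control mean was −2.06, where the median of the 500 genes closest to it in GC was −2.73. Alpk3 was at −1.69, with −1.50 for its like-GC genes, and Sbk1 at −4.28, with −2.31. Sbk2, at 0 reads, was at −7.50, with −1.33. In the other 4 SPOP_CKI libraries the like-GC genes of Speg were at −0.41 to −0.67, and Speg itself at −0.23 to 0.92. Those of Sbk1 were at −0.35 to −0.53 there, and Sbk1 itself at −1.94 to −0.61. Relative to its like-GC genes, Sbk1 stood at −0.20, −1.59, −1.97, −0.80 and −0.22 in SPOP_CKI 1 to 5, and at −0.17 to 0.22 in controls. Tnni3k had like-GC genes at −0.04 to 0.02 in every SPOP_CKI library, and was itself at −1.76 to −0.18.

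**Figure D3:**
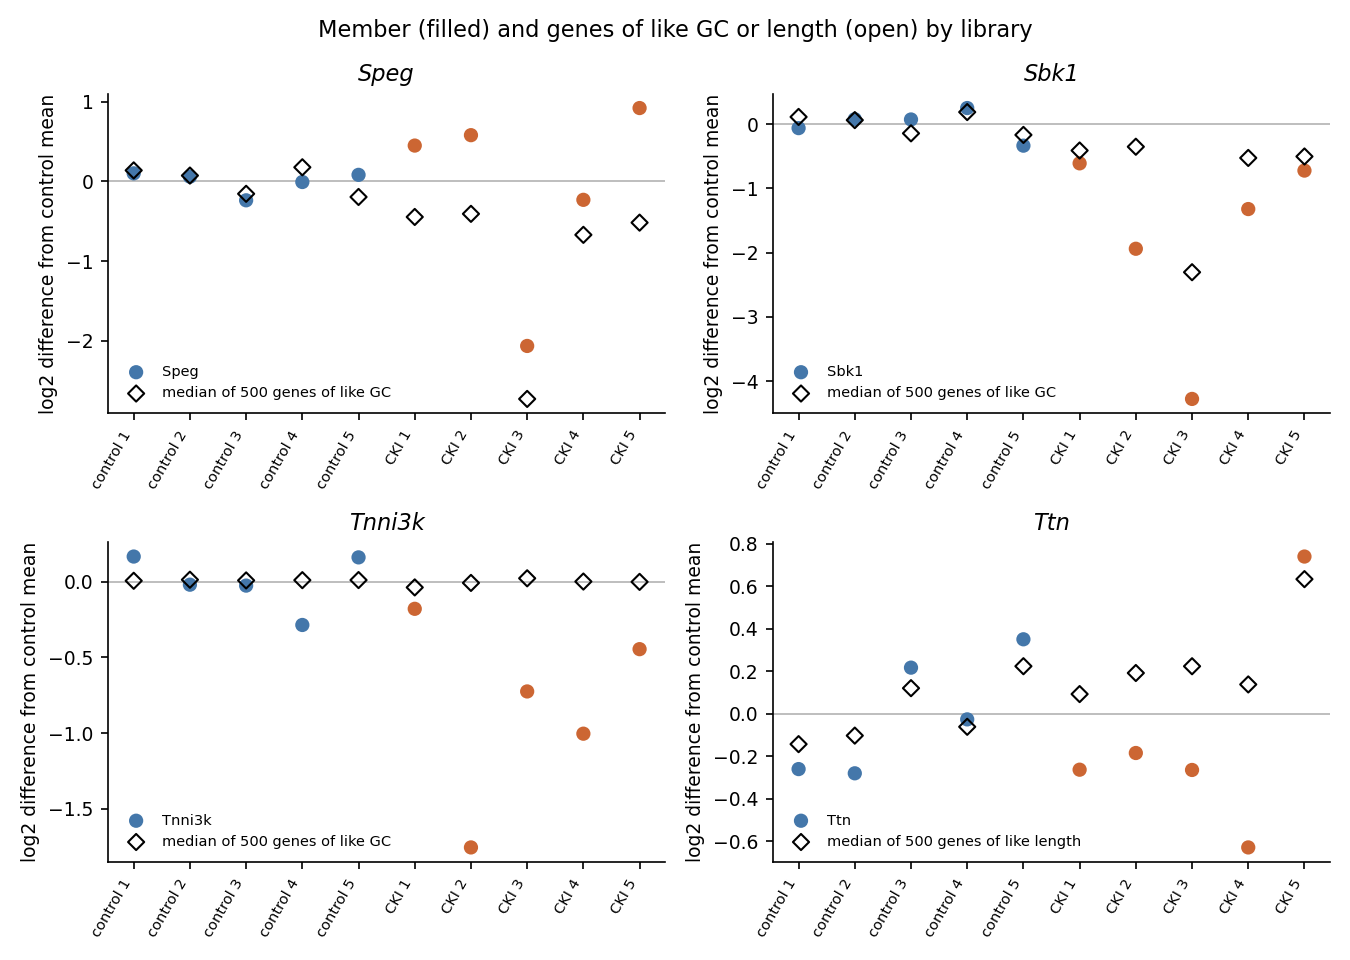
Difference of Speg, Sbk1, Tnni3k and Ttn from the control mean in each library (filled points, blue for controls and orange for SPOP_CKI), on the log2 scale, with the median of the 500 genes closest in GC, or in length for Ttn (open diamonds). In SPOP_CKI 3 the like-GC genes of Speg and Sbk1 are at −2.73 and −2.31, and in SPOP_CKI 5 the like-length genes of Ttn are at 0.63. The genes set beside Ttn are long but no close match to its length.

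Centring each library on its GC trend, an alternative chosen after seeing the data, gave log2 fold changes of 0.86 for Speg (SE 0.19), 0.49 for Alpk3 (SE 0.21) and 0.39 for Alpk2 (SE 0.21). The same step moved Sbk1 to −0.84 (SE 0.29), Sbk2 to −3.57, Sbk3 to −1.76, Tnni3k to −0.83 and Ttn to −0.18. After it the groups overlapped for Sbk1, with SPOP_CKI 5 at −0.16 and control 1 at −0.18 from the control mean. They also overlapped for Sbk3, with SPOP_CKI 5 at −0.42 and control 4 at −0.55, but not for Sbk2. By the GC-centred fit Sbk2 and Tnni3k passed the threshold as lower and Speg as higher, where 9.06% of all genes passed in each direction. With SPOP_CKI 3 also left out, the values were 0.95 for Speg, 0.65 for Alpk3, 0.41 for Alpk2, −0.63 for Sbk1, −2.89 for Sbk2, −1.90 for Sbk3, −0.85 for Tnni3k and −0.13 for Ttn. Sbk1, Sbk2, Sbk3, Tnni3k and Ttn thus had values below 0 under each of these 4 settings. Speg and Alpk3 were below 0 with all libraries and no centring and above 0 under the other 3 of the 4, and both were below 0 again under length centring, at −0.30 and −0.08.

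**Figure D4:**
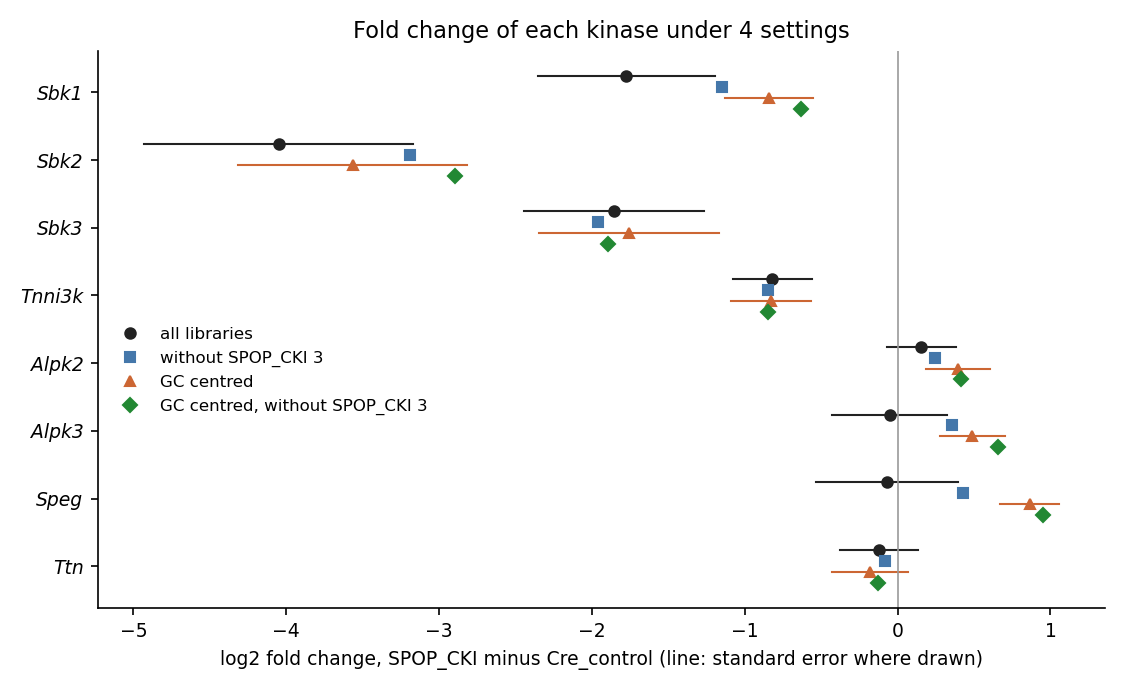
Log2 fold change of each kinase transcript, SPOP_CKI minus Cre_control, with all libraries, without SPOP_CKI 3, after GC centring, and with both. Horizontal lines are standard errors for the fits over all libraries. Sbk2 stays between −4.05 and −2.89, and Speg moves from −0.07 to 0.95.

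Ttn was high together with long genes in SPOP_CKI 5 and not in the other SPOP_CKI libraries. In SPOP_CKI 5, Ttn was 0.74 above the control mean on the log2 scale, and the 500 genes closest to it in length had a median of 0.63. The longest 10% of genes begin at 9667 bases and Ttn has 116825. Its like-length genes thus stand for long genes and are no close match. In the other 4 SPOP_CKI libraries Ttn was between −0.63 and −0.18, and its like-length genes were at 0.09 to 0.22. Alpk2, Alpk3 and Speg were also highest in SPOP_CKI 5, at 0.89, 0.83 and 0.92, where their like-length genes were at 0.26, 0.16 and 0.43. Without SPOP_CKI 5 their log2 fold changes were −0.03, −0.27 and −0.32. Length centring, also chosen after seeing the data, gave a log2 fold change of −0.35 for Ttn and −0.30 for Speg.

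Markers of cardiomyocytes moved with the groups. The 10 pan-cardiomyocyte markers summed to 666257 ± 76315 scaled reads in controls and 449378 ± 132994 in SPOP_CKI, with 5 of the 10 lower and 1 higher by limma. Over all tested genes 12.3% were lower and 10.0% higher, and these shares stand beside all counts of marker genes below. Taken relative to the sum of the cardiomyocyte markers, the log2 differences were −3.44 for Sbk2, −1.25 for Sbk3, −1.17 for Sbk1 and −0.21 for Tnni3k. They were 0.76 for Alpk2, 0.56 for Alpk3, 0.54 for Speg and 0.49 for Ttn. The part of cardiomyocyte content in these results was not tested. The sum itself includes markers, such as Myh6, that were low in the SPOP_CKI hearts.

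Atrial marker reads differed between libraries. Of the defining atrial markers, Sln, a sarcoplasmic reticulum peptide, had 407 scaled reads in control 1 and 113 in SPOP_CKI 1, and 0 to 17.1 in the other libraries. Myl7, the atrial regulatory light chain, had 1108 and 292 in the same hearts and 0 to 33.2 elsewhere, and Myl4, the atrial essential light chain, 1464 and 364 there and 0 to 134 elsewhere. The whole list of 12 summed to 4279 to 9432 in controls and 6405 to 21495 in SPOP_CKI, with 1 gene higher and 2 lower, and Bmp10 was at 0 in 8 of 10 libraries. Nppa, the atrial natriuretic peptide gene, which stressed ventricle also expresses, had 218 to 1377 scaled reads in controls and 2753 to 18587 in SPOP_CKI. Nppa is itself 1 of the 12 genes and made up most of their sum in SPOP_CKI 2 and 4. It held 18587 of 21495 scaled reads in SPOP_CKI 2 and 10206 of 13178 in SPOP_CKI 4. Sbk3 was highest in control 1, at 345. Sbk2 was at 228 in that heart, below only control 3, where Sln was at 2.27. In SPOP_CKI 1, Sbk2 was at 33.4 and Sbk3 at 101, both below only SPOP_CKI 5 in that group. SPOP_CKI 3, with the lowest Sbk2, and SPOP_CKI 4, with the lowest Sbk3, had no Sln or Myl7 reads. SPOP_CKI 5 also had no Sln reads, with Myl7 at 8.27, and the highest Sbk2 and Sbk3 of its group, at 37.8 and 143. Control 5, with Sln at 17.1 and Myl7 at 33.2, had the lowest Sbk2 of the controls, at 71.8. Sbk2 was at 210, 280 and 193 in controls 2 to 4, where Sln was at 0 to 2.27. The part of atrial content in the Sbk2 and Sbk3 levels was not tested beyond these values.

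Other cell types varied as well. Ventricular markers summed to 143571 to 215077 in controls and 63811 to 148364 in SPOP_CKI (2 of 9 lower), endothelial markers to 46488 to 62688 and 21110 to 31077 (6 of 10 lower), and erythroid markers to 13967 to 28111 and 5309 to 8887 (4 of 5 lower). Macrophage markers reached 22188 and 29431 in SPOP_CKI 2 and 4, against 6132 to 11046 in the other libraries (2 of 10 higher). Fibroblast markers summed to 59658 to 76006 in controls and 59004 to 150345 in SPOP_CKI (1 higher), and smooth muscle and pericyte markers to 28256 to 36675 and 27940 to 41137 (1 higher, 1 lower). Skeletal muscle markers summed to 130 to 489 with 1 lower, Schwann cell and neuron markers to 126 to 546 with 1 higher, and lymphocyte, adipocyte and epicardial lists had no call and summed to at most 445. Whether such shifts bear on the kinases was not tested. SPOP_CKI 2 and 4 were also the hearts with the lowest Tnni3k.

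Among 20 kinases related by domain to these 8, of which 18 were tested, 6 were lower and 1 was higher in SPOP_CKI. Their median log2 fold change was −0.13, near the −0.11 of all genes. After GC centring 4 of the relatives were lower and 1 was higher. Over all tested genes 12.3% were lower and 10.0% higher, and 9.06% each way after GC centring. The same shares stand beside the counts of the lists below. The list of relatives was written with earlier results of these data known. Here and below, folds printed with an adjusted p come from the fitted log2 fold change. They differ from the ratio of the printed means. Mylk4, of the myosin light chain kinase family, fell from 2400 ± 389 to 724 ± 454 (4.13-fold, adjusted p = 0.0135, limma), in 5 of 5 hearts. Its cardiac relative Mylk3, which phosphorylates the ventricular regulatory light chain, was at 9966 ± 870 and 8774 ± 3611 and did not pass (log2 fold change −0.30, adjusted p = 0.468, limma).

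Eef2k, an alpha-kinase, slows translation by phosphorylating elongation factor eEF2. It fell from 1065 ± 151 to 395 ± 94.1 scaled reads, with a log2 fold change of −1.45 and an adjusted p of 0.000634 by limma, and with −1.35 after GC centring. Trpm7, an ion channel fused to an alpha-kinase, was the single relative that rose, from 932 ± 197 to 1477 ± 340 (1.58-fold, adjusted p = 0.0355, limma). Leaving out any of 5 single libraries, dropping the filter on low values, GC centring or length centring ended that call. Phkg1, the muscle catalytic subunit of phosphorylase kinase, fell from 345 ± 53.2 to 75.8 ± 61.2 (5.80-fold, adjusted p = 0.00432, limma). The calmodulin-dependent kinase Pnck had 98.3 ± 27.8 in controls and 15.7 ± 13.4 in SPOP_CKI, with 0 in SPOP_CKI 3 (log2 fold change −3.28, adjusted p = 0.0175, limma). Leaving out SPOP_CKI 3 gave Pnck a log2 fold change of −2.45, and leaving out control 4 ended its call. The death-associated kinase Dapk3 fell from 535 ± 43.2 to 238 ± 95.5 (adjusted p = 0.0137, limma), and after GC centring its log2 fold change was −0.37 (adjusted p = 0.157).

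Of 30 proteins that bind titin or sit beside it at the Z-disc, M-band and thick filament, 29 were tested, with 4 higher and 6 lower. Their median log2 fold change was −0.37, against −0.11 over all genes. After GC centring it was −0.06, against −0.03 over all genes. Tcap, telethonin, which caps the Z-disc end of titin, fell from 25186 ± 8464 to 3703 ± 1835 scaled reads (7.11-fold, adjusted p = 0.000545, limma). The log2 fold change of Tcap was −2.83, and −1.90 after GC centring. Fhl1, a LIM protein that binds the titin spring, rose from 3224 ± 867 to 16964 ± 9712 (4.79-fold, adjusted p = 0.00186, limma). Ankrd1, a stretch-responsive protein of the I-band of titin, rose from 23509 ± 9344 to 89557 ± 49431 (3.61-fold, adjusted p = 0.00833, limma). The slow myosin heavy chain Myh7 rose from 9225 ± 6984 to 45519 ± 26170 (5.31-fold, adjusted p = 0.0207, limma), with SPOP_CKI 4 at 10814 within the control range. The call of Myh7 was lost without the filter on low values. These partners moved in both directions while Ttn itself overlapped between the groups.

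All 16 genes of the list of Speg and Tnni3k partners were tested, with 2 higher and 3 lower. Their median log2 fold change was −0.48, against −0.11 over all genes, and −0.35 against −0.03 after GC centring. Cardiac troponin I, Tnni3, which Tnni3k binds, fell from 55443 ± 5599 to 25708 ± 12607 scaled reads (2.36-fold, adjusted p = 0.0135, limma), but after GC centring the adjusted p was 0.12. The calcium pump Atp2a2 fell from 175086 ± 22948 to 87106 ± 37519 (2.15-fold, adjusted p = 0.0199, limma). Leaving out control 1 or control 2 ended its call. Junctophilin 1, Jph1, which ties the sarcoplasmic reticulum to the surface membrane, fell from 525 ± 82.7 to 309 ± 91.9 (1.75-fold, adjusted p = 0.0269, limma). Calsequestrin 2, Casq2, the calcium store of that compartment, rose from 9244 ± 1985 to 16073 ± 4541 (1.71-fold, adjusted p = 0.0404, limma). The Jph1 call was lost under the length centring and without control 1, 2, 3 or 5. That of Casq2 was lost under the GC centring, with a replicate block and without any 1 of 7 libraries.

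Among the splicing regulators that act on titin and other sarcomere transcripts, 4 of 13 were higher and 1 was lower, with a median of 0.19. The serine- and arginine-rich factors Srsf1 and Srsf10 rose 2.02-fold and 1.96-fold (adjusted p = 0.00186 and 0.0034, limma). They went from 1038 ± 70.9 to 2123 ± 418 and from 743 ± 104 to 1468 ± 312 scaled reads. Their log2 fold changes were 1.01 and 0.97, and 0.59 and 0.63 after GC centring. Mbnl1 rose 1.61-fold (adjusted p = 0.0487, limma) and lost its call under 14 of 21 alternatives. Rbm24, a muscle splicing factor, fell 1.58-fold (adjusted p = 0.0246, limma), and its call was lost under the GC centring (adjusted p = 0.06), under the length centring and without control 1, 2, 3 or 5 or SPOP_CKI 4. Of 50 general signalling kinases of the heart, 49 were tested and their median log2 fold change was 0.03, with 9 higher and 6 lower. The 4 called with the largest fold changes were all lower. Camk2b fell from 182 ± 33.9 to 80.1 ± 37.8 (adjusted p = 0.0326), and Stk11, the kinase LKB1 upstream of AMPK, from 2417 ± 322 to 1104 ± 380 (adjusted p = 0.005), both by limma. The call of Camk2b was lost with a replicate block and without any 1 of 7 libraries, and that of Stk11 under the GC centring. Prkd1 fell 2.11-fold and Mapk3, the kinase ERK1, 2.08-fold (adjusted p = 0.0135 and 0.0114, limma). The log2 fold change of Mapk3 was −1.06, and −0.51 after GC centring.

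Of the 25 protein-coding genes within 250 kb of Sbk2 or Sbk3, 20 were tested, and 5 of them were lower and 0 higher by limma, where 12.3% of all genes were lower. The other 15 did not pass. The median log2 fold change of the 20 was −1.08, against −0.11 over all genes, and 19 of the 20 values were negative. The share of negative values over all genes was not counted, so nothing is read from that number. After GC centring the median was −0.54 and 3 were lower, against a median of −0.03 over all genes. Without SPOP_CKI 3 the median was −0.68, against −0.02, and 8 were lower, where 17.3% of all genes were. The 4 tested neighbours with the smallest gap between their ends and those of Sbk2 or Sbk3, at most 18.5 kb, did not pass. Zfp628 and Zfp579, both zinc finger genes, had log2 fold changes of −0.97 and −0.74 (adjusted p = 0.0688 and 0.0611, limma), which were −0.04 and 0.19 after GC centring. Nat14 was at −1.16 (adjusted p = 0.369) and Ssc5d at 0.02 (adjusted p = 0.98) by the same test. After GC centring Nat14 was at −0.65 and Ssc5d at 0.96. The span of Ssc5d, on the opposite strand, overlaps that of Sbk2, but their annotated exons share no base. The 5 that passed, named after their values were seen, were Isoc2a (−2.41, adjusted p = 0.000555), Fiz1 (−0.76, adjusted p = 0.0129), Kmt5c (−0.93, adjusted p = 0.0135), the ribosomal protein gene Rpl28 (−1.22, adjusted p = 0.0277) and Rasl2-9 (−2.97, adjusted p = 0.0319). The tested neighbours ranged from −2.97 to 0.02, all above the −4.05 of Sbk2, while several lay below the −1.85 of Sbk3.

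**Figure D5:**
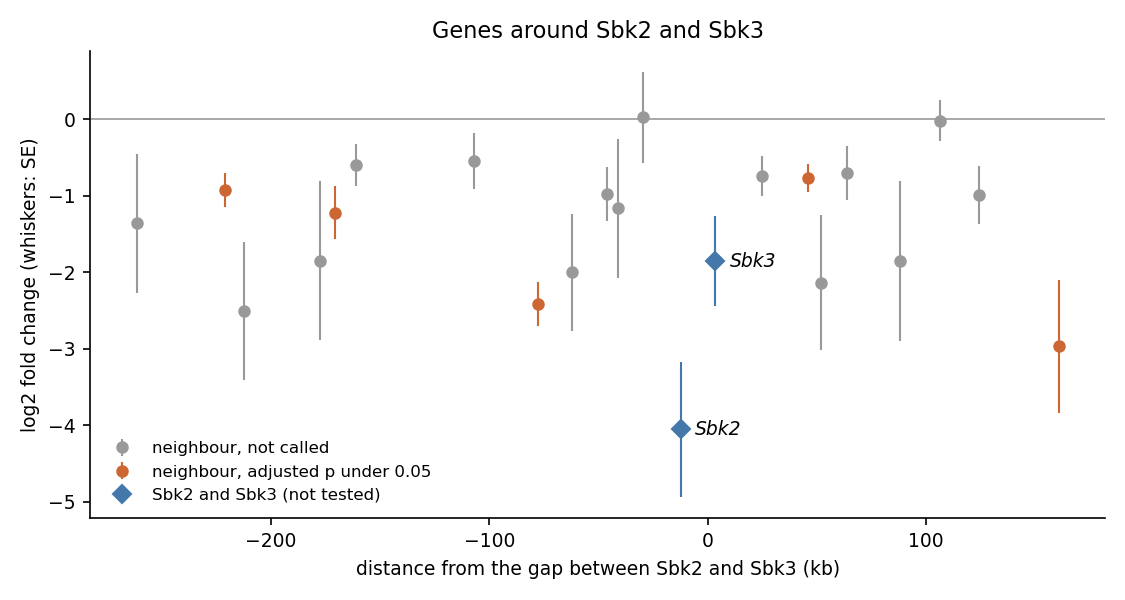
Log2 fold change, SPOP_CKI minus Cre_control, of the 20 tested protein-coding neighbours and of Sbk2 and Sbk3, by the distance of the middle of each gene from the gap between Sbk2 and Sbk3, in kb. Whiskers are standard errors and orange points are the 5 neighbours with an adjusted p under 0.05. Of the neighbours, 19 of 20 lie below 0 in this fit without GC centring, and the share over all genes was not counted.

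For each kinase, the protein-coding genes with the most similar values were found by the root mean square difference, over the 10 libraries, of the log2 deviations from the control mean. Closest to Sbk2 were Tmem82 at 0.45, Gfra4 at 0.51 and Penk at 0.56, and closest to Sbk3 were Ppl at 0.45, Gm10643 at 0.51 and Ccbe1 at 0.58. Among the closest to Sbk1 were Zer1 at 0.27 and Nipal3 at 0.28. Closest to Tnni3k were Mut at 0.20, Ldhb at 0.21 and Gpr157 at 0.21. For Alpk3 these were Mcu at 0.13, Srf at 0.18 and Slc38a10 at 0.18, and for Speg they were Plec at 0.18, Myo18a at 0.19 and Micall1 at 0.24. Alpk2 was closest to Ankrd17 at 0.10, Huwe1 at 0.10 and Prpf8 at 0.10, and Ttn to Cnot1 at 0.13, Fryl at 0.14 and Zfp609 at 0.15. Without SPOP_CKI 3 the sets for Sbk1, Alpk3, Speg and Tnni3k were replaced entirely, with Zfyve21, Dnajc27 and Rbm38 in first place for Sbk1, Speg and Tnni3k. Tmem82, Ankrd17, and, in another order, Ppl and Gm10643 stayed among the closest to Sbk2, Alpk2 and Sbk3.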

How the data were processed

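The submitters' processing notes name featureCounts 1.5.0-p3 (read counting), DESeq2 1.20.0 and the build mm10. The sources used here do not give the aligner, annotation or strand setting. The authors deposited, per library, a scaled read signal. Its smallest step per library recovered whole reads (100% of values, tolerance 0.001). The authors also deposited a log2 fold change and a p-value per gene, which are not printed.

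The test was limma 3.58.1 (trend and robust, R 4.3.3) on the log2 of value + 1 (pseudocount 1) with the 2 genotypes as groups. It covered genes at 10 or more in 5 or more libraries and was two-sided, Benjamini-Hochberg adjusted at 0.05. edgeR 4.0.16 and DESeq2 1.42.0 were run on the recovered reads. The script was tested on simulated data. GC content comes from GENCODE M21 (GRCm38), and promoters from RefSeq (GRCm38.p6). RPKM uses the gene length in the table. Within groups, the closest pair of libraries differed by 12.7 chi-square per degree of freedom.

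The 8 kinases, the 6 gene lists and the 13 marker lists were chosen with earlier results of these data known. Named genes are the 8 kinases, related kinases that passed or had a mean of at least 1000, up to 4 called genes with the largest fold change per other list, and the 4 nearest neighbours of Sbk2 and Sbk3. Likeness named the closest 3 genes. Some genes that these rules take are not reported here.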

Additional observations from a re-analysis of the deposited data

Results flagged for a closer look

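The Ttn value of 42388 scaled reads in SPOP_CKI 5 lay farther from the other 4 SPOP_CKI libraries, at 16395 to 22317, than Dixon's test allows for 5 values. Such a test marks about 1 in 20 groups by chance. The 500 genes closest to Ttn in length had a median log2 difference from the control mean of 0.63 in that library, beside 0.74 for Ttn. These are long genes but no close match to the length of Ttn. Without SPOP_CKI 5 the log2 fold change of Ttn was −0.34.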

How the results depend on the processing

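Over 21 alternatives, Sbk1, Sbk2, Sbk3 and Tnni3k kept negative log2 fold changes, ranging from −2.07 to −0.63, −4.51 to −2.89, −2.20 to −1.28 and −0.98 to −0.59. Alpk2 ranged from −0.03 to 0.41, Alpk3 from −0.27 to 0.65, Speg from −0.32 to 0.95 and Ttn from −0.35 to 0.18, so their signs depend on the setting. GC centring moved Speg to 0.86, and with SPOP_CKI replicate 3 also left out Speg was 0.95, Alpk3 0.65 and Sbk1 −0.63. The number of the 8 kinases called lower was 4, where 12.3% of all genes were lower. It was 2 without the filter on low values (6.15% of all genes), 2 under the GC centring (9.06%), 2 under the length centring (11.0%) and 1 with edgeR (10.5%). The number called higher was 0 (10.0% of all genes), 1 under the GC centring (9.06%) and 2 when SPOP_CKI 3 was also left out (12.9%).

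Without the filter, 0 kinase relatives, 1 Speg and Tnni3k partner and 5 signalling kinases were higher. Under the GC centring these higher counts were 1 partner, 5 signalling kinases and 2 splicing regulators, with 3 neighbours lower. Under the length centring they were 0 relatives, 1 partner and 2 splicing regulators, with 0 splicing regulators lower. Under the GC centring without SPOP_CKI 3 they were 2 relatives, 1 partner and 2 splicing regulators, with 2 splicing regulators and 3 neighbours lower. The cause of these moves was not tested.

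With 1 library left out at a time, genes called numbered 1963 (without control 1) to 4400 (without SPOP_CKI 3), against 3168. The kinases called lower numbered 1 to 4, with 1 without any 1 control library (7.48% to 9.54% of all genes lower) and 2 without SPOP_CKI 2 or 4 (10.9% and 9.10%). Higher and lower counts ran from 0 to 3 and 5 to 6 for relatives, 0 to 2 and 1 to 5 for Speg and Tnni3k partners, 4 to 11 and 3 to 8 for signalling kinases and 2 to 4 and 0 to 2 for splicing regulators. Neighbours called lower numbered 3 to 8.

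The numbers 1 to 5 occur in both groups, but same-numbered libraries correlated at 0.026 to 0.159 in their deviations, and only 2 of the 5 SPOP_CKI libraries correlated best with the control of their own number, so the numbers were not taken to pair the mice. With a replicate block, 2946 genes were called, 3 of the 8 kinases were lower (11.5% of all genes), 1 partner was higher and 2 splicing regulators were lower.

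Sbk2 and Sbk3 rest on few reads (at most 37 and 121 in SPOP_CKI), which limits the precision of their folds. Mice, litters and preparation cannot be told apart from the labels. SPOP_CKI libraries varied more than controls (median SD of log2 values 0.55 and 0.26). GC and length centring and their joint use without SPOP_CKI 3 were chosen after seeing the data.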

Other observations

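Per gene length, Ttn was far below Mylk3, Mybpc3 and Myh6 in these libraries. In controls its mean was above those of Alpk3 and Speg, at 11.9 and 8.57 RPKM. Ttn stood at 12.6 ± 2.35 RPKM in controls (SD, n = 5), and Mylk3, the cardiac myosin light chain kinase gene, at 133 ± 16.4. Mybpc3, cardiac myosin-binding protein C, stood at 539 ± 87.4 and Myh6, the alpha-myosin heavy chain, at 2114 ± 237. In SPOP_CKI, Ttn, Mylk3, Mybpc3 and Myh6 stood at 13.6 ± 3.53, 133 ± 48.2, 433 ± 124 and 904 ± 469 RPKM. The table gives Ttn a length of 116825 bases. The way reads were assigned along these genes is not known from the sources used here, and its part in the low Ttn level was not tested. These genes were chosen after their values were seen.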
